A study of Mus musculus with 6 samples.

Results

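The genes described here encode the enzymes that carry pyruvate into the mitochondrion, turn it into acetyl-CoA and oxidise it in the tricarboxylic acid (TCA) cycle, with the malate and aspartate enzymes that move reducing power across the inner membrane. A list of 31 genes was taken by symbol, and 29 of them had a row among the 13734 genes of the deposited table. Got1 and Glud1 were not analysed here. All 29 passed the filter on low values of at least 1 CPM (reads scaled to a common library size) in at least 3 libraries, and the lowest read number of any member in any library was 235, for Pdp2.

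Pyruvate enters the matrix through a carrier made of MPC1 and MPC2. The pyruvate dehydrogenase complex joins 3 catalytic activities, E1, E2 and E3, and is switched off when kinases (PDK) phosphorylate E1 and on when phosphatases (PDP) remove the phosphate. In fat cells citrate made in the cycle is exported as the carbon source of fatty acid synthesis, pyruvate carboxylase refills the cycle, and full oxidation feeds the respiratory chain.

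RNA came from 1 immortalized mouse subcutaneous white preadipocyte line with Dicer1 flox/flox alleles and a Cre-ERT2 recombinase, differentiated with insulin, rosiglitazone, T3, IBMX, dexamethasone and indomethacin. From day 6, 3 cultures were kept for 48 h in 4-hydroxytamoxifen (10 µM, DICER_KO), and 3 were kept in ethanol (control). The drug activates the Cre to delete Dicer1, the gene of the microRNA-processing RNase. Isoproterenol (10 µM, 6 h), which stimulates beta-adrenergic receptors, was given to all 6 afterwards, and the driver of the Cre is not given in the sources used here. The deletion and the drug cannot be told apart, since no control received 4-hydroxytamoxifen. The labels call the controls WT control and the libraries of each group biological replicates 1 to 3. They do not say whether the replicates were differentiated separately, so a p-value here reflects library-to-library spread that may be technical.

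The libraries held 13569034 to 30268077 reads on the genes of the table, and DICER_KO replicate 3 was the deepest. Dicer1 read 6.14, 6.09 and 6.14 log2 CPM in controls 1 to 3 and 5.43, 5.47 and 5.49 in DICER_KO replicates 1 to 3, so every DICER_KO library lay below every control (log2 difference -0.66, SE 0.10, limma adjusted p = 0.015; -0.67 and 0.000234 without DICER_KO replicate 3). Dicer1 RNA stood at 0.627 of the control level in DICER_KO replicates 1 and 2 and at 0.645 in replicate 3. These levels do not give the extent of the deletion. In other genes DICER_KO replicate 3 stood apart from replicates 1 and 2. The 16 markers of the mature adipocyte summed to 8242 to 10200 CPM in controls, to 13306 and 13073 in DICER_KO replicates 1 and 2, and to 4127 in replicate 3. The members' differences are therefore given with and without that library. In bulk RNA, fewer cells of a type and less RNA per cell cannot be told apart.

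Most members were higher than in every control in DICER_KO replicates 1 and 2 and lower than in every control in replicate 3. Replicates 1 and 2 both lay above all controls for 25 of 29 members, against 28.2% of all genes tested, and below them for 1, against 23.5%. Replicate 3 lay below all controls for 21 members, against 28.9% of all genes, and above them for 2, against 28.8%. Both directions held together for 19 members, against 8.48% of all genes. With all libraries the member differences ran from -0.20 to 0.69 on the log2 scale with a median of 0.19, beside a median of 0.02 over all 10054 genes tested. None of the 29 members passed limma's test at an adjusted p of 0.05, where 0.149% of all genes were called higher and 0.288% lower. Limma-voom on reads recovered from the values called 0 members too, and 0.0995% of all genes higher and 0.239% lower. At an unadjusted p under 0.05, 2 members were higher and 0 lower, beside 8.49% and 7.35% of all genes. Without DICER_KO replicate 3 the median was 0.43, and 20 members rose and 0 fell, where 12.5% of all genes rose and 7.22% fell. That fit leaves out the library that went the other way, so its p-values do not describe all 3 DICER_KO libraries.

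**Figure D1:**
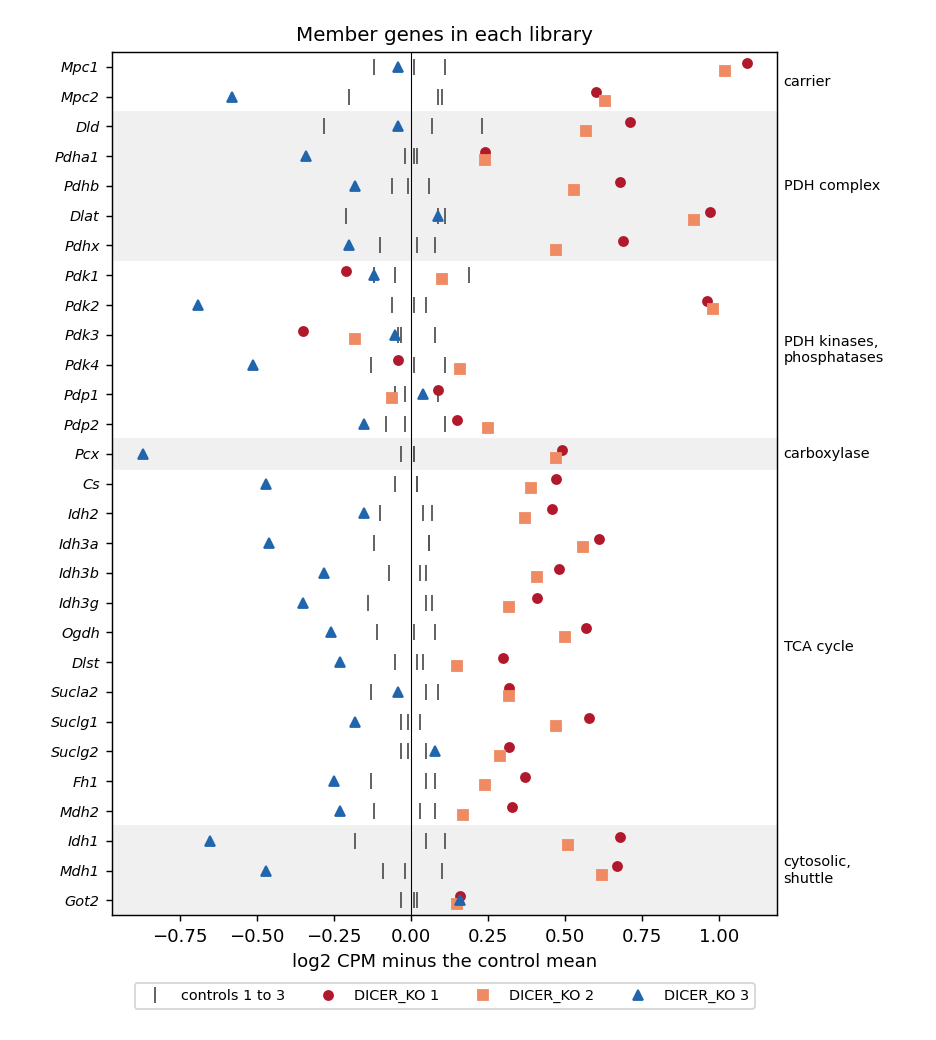
Level of each of the 29 member genes in each library as log2 CPM minus the mean of the 3 controls, grouped by role. Grey ticks are controls, circles and squares are DICER_KO replicates 1 and 2, and triangles are DICER_KO replicate 3. In replicates 1 and 2 all of the carrier, pyruvate dehydrogenase complex, carboxylase and TCA cycle genes lie right of the controls, while Pdk1, Pdk3, Pdk4 and Pdp1 do not.

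Of all 29 members, Mpc1 of the carrier had the largest difference, with or without replicate 3. Mpc1 (Entrez 55951, GRCm38 chromosome 17, 8283787 to 8297667) read 5.07, 4.84 and 4.97 log2 CPM in controls against 6.05, 5.98 and 4.92 in DICER_KO. Replicates 1 and 2 lay above every control and replicate 3 lay among them, for a difference of 0.69 (SE 0.25, limma adjusted p = 0.246) with all libraries. Without replicate 3 Mpc1 rose by 1.06 (SE 0.11, limma adjusted p = 8.39e-06). Its partner Mpc2 (chromosome 1, 165461260 to 165481218) read 6.29, 5.99 and 6.28 in controls against 6.79, 6.82 and 5.61 in DICER_KO. For Mpc2 replicate 3 fell outside the controls on the low side, and the difference was 0.22 (SE 0.27, limma adjusted p = 0.682) with all libraries. Without replicate 3 it rose by 0.62 (limma adjusted p = 0.00106).

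A ratio of 2 genes within a library does not depend on how libraries are scaled. The log2 ratio of Mpc1 to Mpc2 was -1.22, -1.15 and -1.31 in controls and -0.73, -0.83 and -0.69 in DICER_KO. All 3 DICER_KO libraries, replicate 3 included, lay above all 3 controls, with means of -1.23 ± 0.08 and -0.75 ± 0.07 (SD, n = 3). The two-sided exact permutation test gave p = 0.1, the smallest that 3 against 3 libraries allow, and 0.9 after Benjamini-Hochberg adjustment over the 9 ratios computed. In the other 8 ratios (Idh2/Idh1, Mdh2/Mdh1, Suclg2/Sucla2, Pdk2/Pdk1, Pdk4/Pdk2, Pdp1/Pdp2, Pcx/Pdha1 and Idh3b/Idh3a) the groups overlapped.

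Promoter sequences of 27 members were found in RefSeq's table (GRCm38.p6), as 300 bases from 250 before to 50 after each annotated start. The CCAAT box (CCAAT, either strand) stood in 66.7% of these 27 members and in 43.1% of the 7932 tested genes with a promoter in the table. Members had 1.37 annotated starts per gene in the table and all tested genes 1.27. Stretches of 120 bases before the start are shown for 3 genes with the box, chosen with their values known to cover the carrier, E1 and a kinase, with CCAAT or its reverse complement in capitals. The stretches are chr17:8283667-8283786 (plus strand), chr14:8172993-8173112 (minus strand) and chr11:95041372-95041491 (minus strand).
Mpc1: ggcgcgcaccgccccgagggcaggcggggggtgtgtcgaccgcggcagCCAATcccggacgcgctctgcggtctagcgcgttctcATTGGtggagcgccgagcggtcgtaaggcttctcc
Pdhb: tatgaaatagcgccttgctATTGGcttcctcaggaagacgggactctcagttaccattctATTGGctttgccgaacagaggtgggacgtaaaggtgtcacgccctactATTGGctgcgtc
Pdk2: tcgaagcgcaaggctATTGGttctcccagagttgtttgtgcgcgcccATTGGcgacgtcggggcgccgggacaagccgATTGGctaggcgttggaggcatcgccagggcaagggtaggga

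The Mpc1 stretch holds 2 CCAAT boxes, and those of Pdhb and Pdk2 hold 3 each. These 3 genes rose without replicate 3, while Pdk3, Pdk4 and Pdp2, which also had the box, did not pass. Dlat, Idh3g, Sucla2 and Suclg1 rose with no box in the window. Dlst, Got2, Mdh2, Pdha1 and Pdk1, also with none, did not pass. Whether the box goes with a member's difference was not tested. A downstream start of Mpc1 and one of Pdk2 had none in the same window. The GC box (GGGCGG) stood in 70.4% of members and 68.9% of all, the NRF1 motif in 7.41% and 10.9%, the ETS core bound by GABP (CCGGAAGT) in 3.7% and 8.57%, and the ERR half-site (AAGGTCA) in 3.7% and 3.82%. The cyclic AMP response element (TGACGTCA) stood in 2 members, Mdh2 and Ogdh (7.41% against 3.49%). The YY1 motif (AAGATGGC) and the hypoxia response core (TACGTG) stood in 1 member each, and the PPAR-type direct repeat DR1 in 0 (0.0504% of all). All motifs were searched on both strands, and a member counted if any of its promoters matched. These shares describe letters in a window, and no binding was measured.

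All 5 genes of the pyruvate dehydrogenase complex were above every control in DICER_KO replicates 1 and 2, against 28.2% of all genes tested. The 5 differences varied in size. Dlat, the E2 acetyltransferase (Entrez 235339, chromosome 9, 50634633 to 50659780), read 7.05, 6.75 and 7.07 log2 CPM in controls against 7.93, 7.88 and 7.05 in DICER_KO. Replicate 3 lay among the controls for Dlat, and the difference was 0.66 (SE 0.21, limma adjusted p = 0.193) with all libraries and 0.95 (SE 0.11, limma adjusted p = 2.72e-05) without it. The E1 beta subunit gene Pdhb read 7.59, 7.47 and 7.52 in controls against 8.21, 8.06 and 7.35 in DICER_KO. Dld, the E3 dehydrogenase that other 2-oxoacid complexes share, read 7.66, 7.31 and 7.82 in controls against 8.30, 8.16 and 7.55 in DICER_KO. Pdhx, which tethers E3, read 5.52, 5.34 and 5.46 in controls against 6.13, 5.91 and 5.24 in DICER_KO. Without replicate 3, Pdhb rose by 0.61, Dld by 0.64 and Pdhx by 0.59, with limma adjusted p-values of 0.000476, 0.00249 and 0.0016, and with all libraries the differences were 0.35, 0.41 and 0.33 (0.38, 0.326 and 0.408).

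Pdha1, the X-linked gene of the E1 alpha subunit that the kinases phosphorylate, had the smallest difference of the 5. Pdha1 (chromosome X, 160122219 to 160138430) read 8.04, 8.07 and 8.08 log2 CPM in controls against 8.30, 8.30 and 7.72 in DICER_KO, a difference of 0.04 (SE 0.15, limma adjusted p = 0.893). Without replicate 3 it was 0.24 (limma adjusted p = 0.0782) and did not pass. The ratios of the other complex genes to Pdha1 were added after these values were seen and are given with no test. The log2 ratio of Dlat to Pdha1 was -0.99, -1.32 and -1.02 in controls and -0.38, -0.42 and -0.67 in DICER_KO. That of Pdhb to Pdha1 was -0.45, -0.60 and -0.56 in controls and -0.09, -0.24 and -0.37 in DICER_KO. For Dlat, Pdhb, Pdhx and Dld alike, each of the 3 DICER_KO ratios lay above each control ratio, by 0.28 (Pdhx) to 0.62 (Dlat) between the means. The 4 ratios share Pdha1 as denominator and so are not separate observations. Because Pdha1 had the smallest difference of the 5, all 4 mean ratios had to be higher in DICER_KO.

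**Figure D2:**
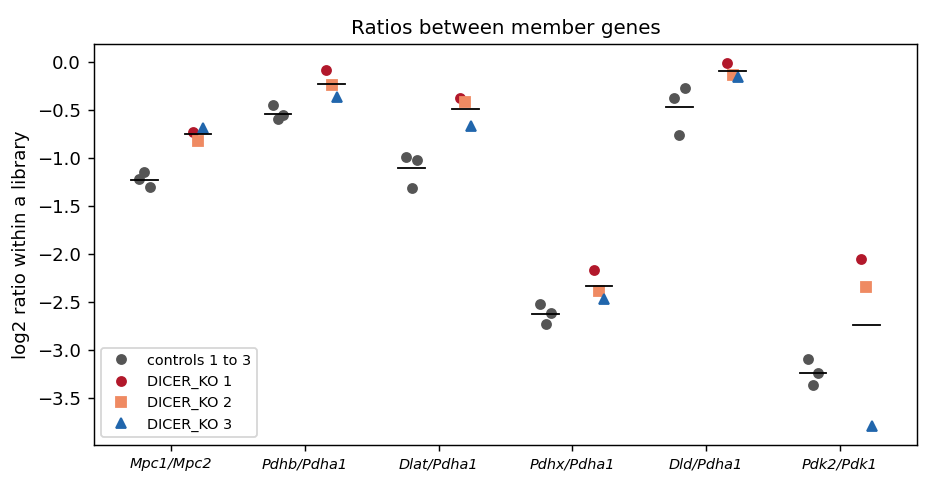
Log2 ratio of the deposited levels of 2 genes within each library, for 6 pairs. The 4 ratios to Pdha1 were added after the values were seen. Of the 9 planned ratios only Mpc1/Mpc2 and Pdk2/Pdk1 are drawn, and in those left out the groups overlapped. Grey circles are the 3 controls, coloured symbols the 3 DICER_KO replicates and short lines the group means. In the first 5 pairs every DICER_KO library lies above every control, while Pdk2/Pdk1 places replicates 1 and 2 above the controls and replicate 3 below them.

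Of the 6 kinase and phosphatase genes of the complex, Pdk2 passed without replicate 3 and the other 5 passed neither fit. Pdk2 (Entrez 18604, chromosome 11, 95026258 to 95041371) read 4.84, 4.88 and 4.77 log2 CPM in controls against 5.79, 5.81 and 4.14 in DICER_KO. Its difference was 0.42 (SE 0.36, limma adjusted p = 0.541) with all libraries, the largest SE of the 29 members, and 0.97 (SE 0.10, limma adjusted p = 1.42e-05) without replicate 3. Pdk1, the kinase induced in hypoxia, read 7.94, 8.25 and 8.01 in controls against 7.85, 8.16 and 7.94 in DICER_KO, so the groups overlapped with or without replicate 3 (-0.08 and -0.06, limma adjusted p = 0.751 and 0.736). Pdk3 (chromosome X) read 5.51, 5.62 and 5.50 in controls against 5.19, 5.36 and 5.49 in DICER_KO. Every DICER_KO library lay below every control for Pdk3, replicate 3 only just, and the difference of -0.20 (SE 0.11, limma adjusted p = 0.399) did not pass, nor did the -0.27 without replicate 3 (0.0913). Pdk4, the kinase that fasting and PPAR ligands induce, read 6.49, 6.39 and 6.25 in controls against 6.34, 6.54 and 5.87 in DICER_KO, with a low replicate 3 and overlapping groups. The Pdk4 difference was -0.13 (limma adjusted p = 0.691) with all libraries and 0.06 (0.693) without replicate 3. The phosphatase gene Pdp1 read 4.51, 4.48 and 4.62 in controls against 4.62, 4.47 and 4.57 in DICER_KO, a difference of 0.02 (SE 0.11). Pdp2 differed by 0.08 (SE 0.15), and neither passed in the fit without replicate 3 (limma adjusted p = 0.948 and 0.299).

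Per kilobase of exon, the kinase levels in controls stood in the order Pdk1, Pdk4, Pdk3, Pdk2, at 34.6 ± 4.04, 23.7 ± 1.94, 18.2 ± 0.868 and 8.98 ± 0.351 CPM per kb (SD, n = 3). With the length of the principal transcript in place of all annotated exons, Pdk4 (23.9 ± 1.96) and Pdk3 (22 ± 1.05) lay within their spread, and the order of Pdk1, first, and Pdk2, last, held. By exon length Mdh2 (109 ± 7.63 CPM per kb), Cs (87.9 ± 2.37) and Pcx (84.5 ± 1.42) were highest of the 29 members, the levels of Cs and Pcx lying close together, and Pdp2 (2.12 ± 0.148) was lowest. The principal transcript's length was found for 26 members, Pcx, Ogdh and Pdp1 not among them, and over these Mdh2 and Cs were again highest and Pdp2 lowest.

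Pdk2 also held 2 matches to the miR-103 seed in its 3' UTR. Because Dicer1 was the targeted gene, the longest annotated 3' UTR (GENCODE M21) of each of the 29 members was searched for the 7 bases that pair with positions 2 to 8 of 9 microRNAs known in adipocytes or hypoxia. Mature microRNAs were not measured. The microRNAs of the matches named below are shown from RefSeq (GRCm38.p6) with the seed in capitals.
mmu-miR-103-3p: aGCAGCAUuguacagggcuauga
mmu-miR-29a-3p: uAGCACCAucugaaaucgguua
mmu-let-7a-5p: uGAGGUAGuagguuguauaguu
mmu-miR-30a-5p: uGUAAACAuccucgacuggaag

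The miR-103 match stood in Pdk2 at 3' UTR positions 28 and 717 and once each in Cs, Idh3a and Ogdh. The miR-29 match stood in Dlat and Fh1, and the let-7 match in Dld, Dlst and Pcx. Pdp2, whose 3' UTR of 3907 bases is the longest of the members, held 2 matches to miR-29 and 1 each to miR-103 and let-7, and Pdk4 and Idh1 held the miR-30 match. Pdha1 held 1 match each to miR-27 and miR-21. The genes whose sites are printed here all passed without replicate 3. Pdp2, Pdha1, Dlst, Pdk1 and Pdk4, also with a match, did not pass. The miR-103 sites of Pdk2, Cs, Idh3a and Ogdh and the miR-29 site of Dlat are shown 5' to 3', with the matching bases in capitals.
Pdk2 position 28: cctggcacctgtaggATGCTGCcacctctg
Pdk2 position 717: gtctacacccaccctATGCTGCctgagctt
Cs: tggagctttgtttctATGCTGCcaccccca
Idh3a: tcatgaagatttttgATGCTGCcaaagcac
Ogdh: ctgctccccggtcacATGCTGCccagcctg
Dlat: cccagaacaggcaccTGGTGCTgcatccgc

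Shares of members and of all tested genes with a match are given side by side, with no test. The miR-103 match stood in 17.2% of members and 14.9% of the 9507 tested genes with a 3' UTR, let-7 in 13.8% and 12%, miR-29 in 10.3% and 17%, miR-27 in 10.3% and 19.2%, and miR-30 in 6.9% and 16.9%. The other microRNAs were miR-26 (6.9% and 11.9%), miR-21 (3.45% and 8.71%), miR-210 (3.45% and 4.08%) and miR-193b (0% and 12.7%). The median 3' UTR was 924 bases in members and 1366 in all tested genes, and 12 of the 29 members held no match to any of the 9. Those with none were Idh2, Idh3b, Idh3g, Sucla2, Mdh1, Mdh2, Pdhb, Pdk3, Pdp1, Mpc1, Mpc2 and Got2. Whether a match goes with a member's difference was not tested.

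Pyruvate carboxylase had the lowest value of replicate 3 against the controls of all members. Pcx (Entrez 18563, chromosome 19, 4510472 to 4621752) read 8.66, 8.66 and 8.62 log2 CPM in controls against 9.14, 9.12 and 7.78 in DICER_KO. Replicate 3 stood at 0.547 of the control level, and replicates 1 and 2 stood above every control. The opposite directions left a difference of 0.03 (SE 0.29, limma adjusted p = 0.965) with all libraries, and Pcx rose by 0.48 (SE 0.09, limma adjusted p = 0.0022) without replicate 3.

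The 12 TCA cycle enzyme genes were above every control in DICER_KO replicates 1 and 2, against 28.2% of all genes tested. In replicate 3, 10 of them were below every control, against 28.9% of all genes. Without replicate 3, 10 of the 12 rose, where 12.5% of all genes rose. With all libraries 0 passed and the 12 differences ran from 0.07 to 0.30. Cs, citrate synthase (Entrez 12974, chromosome 10, 128337727 to 128362482), read 9.01, 9.01 and 8.94 log2 CPM in controls against 9.46, 9.38 and 8.52 in DICER_KO. It differed by 0.13 (SE 0.21, limma adjusted p = 0.763) with all libraries and rose by 0.43 (limma adjusted p = 0.00528) without replicate 3.

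The NAD-dependent isocitrate dehydrogenase is built from 3 kinds of subunit. Idh3a, the catalytic subunit, read 7.81, 7.63 and 7.81 in controls against 8.36, 8.31 and 7.29 in DICER_KO. Idh3b read 7.48, 7.46 and 7.36 in controls against 7.91, 7.84 and 7.15 in DICER_KO, and the regulatory subunit gene Idh3g read 6.95, 6.97 and 6.76, then 7.31, 7.22 and 6.55. All 3 placed replicate 3 below and replicates 1 and 2 above every control, and without replicate 3 they rose by 0.59, 0.44 and 0.37 (limma adjusted p = 0.000691, 0.0042 and 0.0181). Idh2, the mitochondrial NADP-dependent enzyme, read 7.39, 7.36 and 7.22 in controls against 7.78, 7.69 and 7.17 in DICER_KO, and rose by 0.42 without replicate 3 (limma adjusted p = 0.00723). With all libraries the differences of Idh3a, Idh3b, Idh3g and Idh2 were 0.24, 0.20, 0.13 and 0.23 (limma adjusted p = 0.456 to 0.72).

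In the 2-oxoglutarate dehydrogenase complex the E1 gene Ogdh read 7.80, 7.87 and 7.68 log2 CPM in controls against 8.36, 8.29 and 7.53 in DICER_KO. The E2 gene Dlst read 8.07, 8.09 and 8.0 in controls against 8.35, 8.20 and 7.82 in DICER_KO. Without replicate 3 Ogdh rose by 0.54 (limma adjusted p = 0.00124), while the 0.22 of Dlst did not pass (limma adjusted p = 0.121). With all libraries they differed by 0.28 and 0.07 (limma adjusted p = 0.465 and 0.811). Whether Ogdh and Dlst differ from each other was not tested.

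Succinyl-CoA synthetase has a shared alpha subunit and 2 alternative beta subunits. Suclg1, the alpha subunit gene, read 6.02, 6.06 and 6.00 in controls against 6.61, 6.50 and 5.85 in DICER_KO. Sucla2, of the ATP-forming enzyme, read 6.55, 6.33 and 6.51 in controls against 6.78, 6.78 and 6.42 in DICER_KO, where replicate 3 lay among the controls. Suclg2, of the GTP-forming enzyme, read 5.48, 5.42 and 5.40 in controls against 5.75, 5.72 and 5.51 in DICER_KO. For Suclg2 every DICER_KO library lay above every control, replicate 3 only just, and the difference was 0.23 (SE 0.11, limma adjusted p = 0.332). Without replicate 3 Suclg1 rose by 0.53, Sucla2 by 0.31 and Suclg2 by 0.30, with limma adjusted p-values of 0.00136, 0.0391 and 0.0465. With all libraries Suclg1 differed by 0.30 and Sucla2 by 0.19 (limma adjusted p = 0.403 and 0.441).

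Fumarase and malate dehydrogenase catalyse the last steps of the cycle. Fh1 read 6.86, 6.83 and 6.65 in controls against 7.15, 7.02 and 6.53 in DICER_KO, and rose by 0.30 without replicate 3 (limma adjusted p = 0.0483). Mdh2, the mitochondrial malate dehydrogenase gene, read 8.63, 8.68 and 8.48 in controls against 8.93, 8.77 and 8.37 in DICER_KO, and did not pass in that fit (0.25, limma adjusted p = 0.0922). With all libraries Fh1 differed by 0.12 and Mdh2 by 0.09 (limma adjusted p = 0.704 and 0.759).

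The cytosolic enzymes were more spread over the DICER_KO libraries than their mitochondrial partners, a difference that was not tested. Idh1, the cytosolic NADP-dependent isocitrate dehydrogenase that supplies NADPH, read 7.25, 7.02 and 7.31 in controls against 7.88, 7.71 and 6.55 in DICER_KO. Mdh1, the cytosolic malate dehydrogenase of the shuttle, read 7.37, 7.25 and 7.18 in controls against 7.94, 7.89 and 6.80 in DICER_KO. Their DICER_KO SDs were 0.73 and 0.64 log2 CPM, against 0.33 for Idh2 and 0.29 for Mdh2 (n = 3 each). Without replicate 3 Idh1 rose by 0.60 and Mdh1 by 0.65 (limma adjusted p = 0.00119 and 0.000308), and with all libraries the differences were 0.18 and 0.27 (0.748 and 0.568).

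Got2, the mitochondrial aspartate aminotransferase of the shuttle, had the lowest SD over the DICER_KO libraries of the 29 members. It read 7.25, 7.21 and 7.26 log2 CPM in controls against 7.40, 7.39 and 7.40 in DICER_KO (7.24 ± 0.03 and 7.40 ± 0.01, SD, n = 3). Every DICER_KO library, replicate 3 included, lay above every control, by a difference of 0.16 (SE 0.09, limma adjusted p = 0.396). Without replicate 3 the difference was again 0.16 and the adjusted p was 0.23. With Suclg2 and Pdk3, Got2 made 3 of 29 members (10.3%) whose groups did not overlap (2 above and 1 below), where 20.2% of all genes tested did not (10.4% above and 9.81% below).

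**Figure D3:**
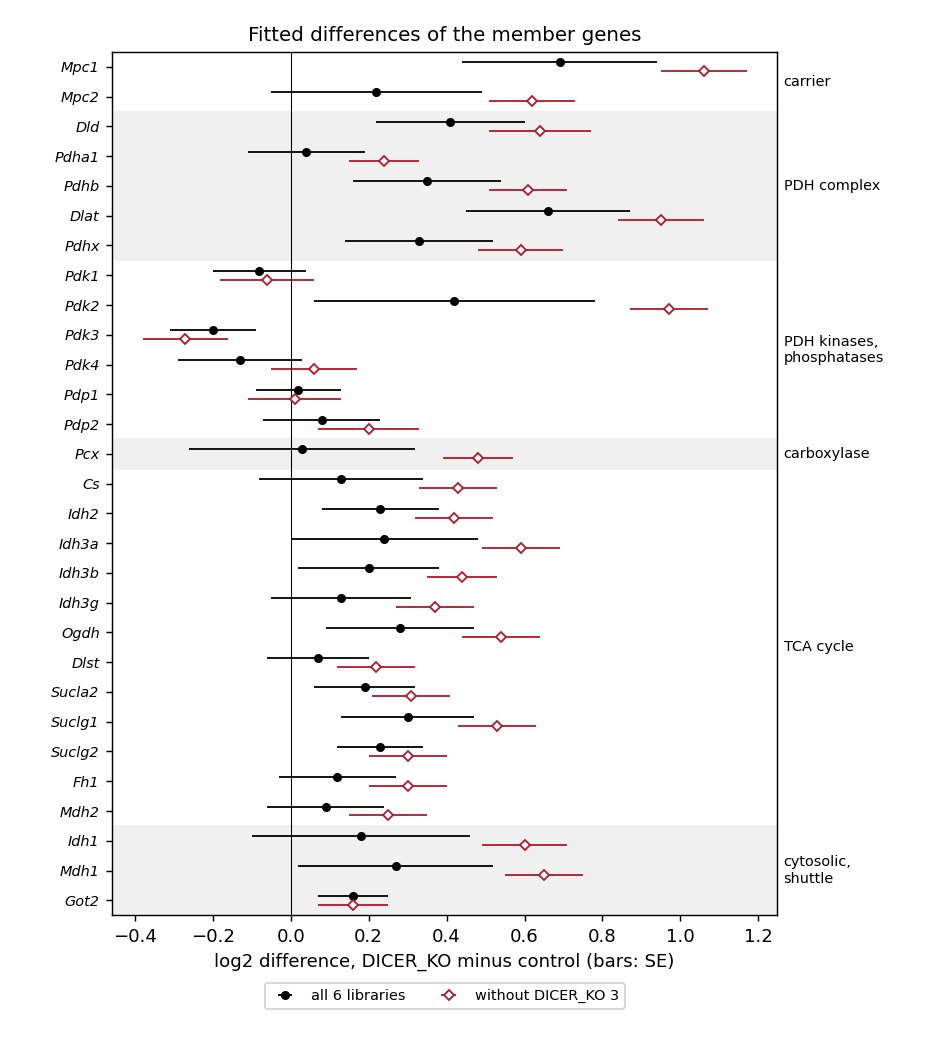
Fitted log2 difference of each member, DICER_KO minus control, with its SE as a bar. Filled circles use all 6 libraries and open diamonds leave out DICER_KO replicate 3. Without that library 20 members passed the threshold, and for Got2, Pdk1 and Pdp1 the estimates hardly moved.

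Of 43 further genes of pyruvate and TCA metabolism, 36 had a row and 34 were tested. With all libraries 0 passed in either direction, with a median of 0.23, and at an unadjusted p under 0.05, 3 were higher (8.82%) and 1 lower (2.94%), beside 8.49% and 7.35% of all genes. Without DICER_KO replicate 3, 19 rose (55.9%) and 1, Pck2, fell (2.94%), beside 12.5% and 7.22% of all genes. The smallest p-values belonged to Pck2, the mitochondrial phosphoenolpyruvate carboxykinase gene, and Gpt2, the mitochondrial alanine aminotransferase gene. Pck2 read 6.82, 6.96 and 6.63 log2 CPM in controls against 6.27, 6.44 and 6.51 in DICER_KO, lower in every library (-0.40, SE 0.12, limma adjusted p = 0.168), and without replicate 3 it fell by 0.45 (limma adjusted p = 0.00963). Gpt2 read 5.09, 5.21 and 5.07 in controls against 5.51, 5.54 and 5.24 in DICER_KO, higher in every library (0.31, limma adjusted p = 0.264), and without replicate 3 it rose by 0.40 (limma adjusted p = 0.0146). The 4 succinate dehydrogenase subunit genes, named after their values were seen, did not pass with all libraries, where they differed by 0.24 to 0.38. Without replicate 3 Sdha, Sdhb, Sdhc and Sdhd rose by 0.58, 0.64, 0.49 and 0.53 (limma adjusted p = 0.000381 to 0.00314).

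Several regulators of mitochondrial genes, and most adipocyte markers, were likewise high in DICER_KO replicates 1 and 2 and low in replicate 3. Ppargc1a, a coactivator of mitochondrial genes, read 3.36, 3.04 and 3.28 log2 CPM in controls against 4.48, 4.49 and 2.60 in DICER_KO. Ppargc1b read 4.87, 5.06 and 4.93 in controls against 6.00, 6.15 and 4.48 in DICER_KO, and the nuclear receptor gene Ppara read 3.92, 4.04 and 3.82, then 5.61, 5.53 and 3.52. Their differences with all libraries were 0.63, 0.59 and 0.96 (limma adjusted p = 0.442, 0.401 and 0.317). Esrra differed by 0.18, Pparg by 0.36, Gabpa by 0.23 and Nrf1 by -0.14, and with all libraries none of the 7 regulators with a row passed. Without replicate 3, 5 of the 7 rose, where 12.5% of all genes rose. Ppara rose by 1.65, Ppargc1a by 1.26, Ppargc1b by 1.12, Pparg by 0.58 and Esrra by 0.36 (limma adjusted p = 2.09e-07, 1.7e-05, 5.18e-06, 0.000629 and 0.021). Gabpa and Nrf1 passed neither fit (0.36 and -0.15 without replicate 3, limma adjusted p = 0.0556 and 0.348). Their part in the members' values was not tested.

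Of the 16 adipocyte markers, 13 were above every control in DICER_KO replicates 1 and 2, against 28.2% of all genes tested. In replicate 3, 15 were below every control, against 28.9% of all genes. Adipoq, Fabp4 and Plin1 read 8.71, 12.73 and 8.34 log2 CPM in DICER_KO replicate 1 and 6.41, 10.81 and 6.77 in replicate 3. The 3 markers not raised in replicates 1 and 2 were Lpl, Car3 and Cd36. Lpl read 11.37, 11.12 and 11.50 in controls against 11.11, 10.94 and 9.88 in DICER_KO, and Car3 read 7.14, 6.68 and 7.16, then 5.14, 5.89 and 2.67. Both were below every control in each DICER_KO library, as were 9.81% of all genes tested. Cd36 read 8.83, 8.61 and 8.94 in controls, then 8.55, 8.73 and 6.78. The 11 of 12 preadipocyte and fibroblast markers with a row summed to 8214 to 9927 CPM in controls and to 5911, 6324 and 4896 in DICER_KO replicates 1 to 3, lower in each. Collagens made up most of that sum, and Col3a1 fell by 1.44 with all libraries (limma adjusted p = 0.00856). The median marker of this list lay at -0.14, -0.04 and -0.42 against the control mean in DICER_KO replicates 1 to 3. In replicate 3, 10 of the 11 were below every control, against 28.9% of all genes tested. In replicates 1 and 2, 0 of the 11 were above every control. Pdgfrb, Ly6a and Cd34 overlapped between the groups, though each was below every control in replicate 3. Of the 10 tested, Col1a1, Col1a2, Col3a1 and Thy1 were below every control in each DICER_KO library, against 9.81% of all genes tested. Dpp4 was too, but it had as few as 5 reads in a library and was not tested. Pdgfra read 7.61, 7.69 and 7.64 in controls against 7.54, 7.80 and 7.41 in DICER_KO, and Dlk1 read 5.65, 5.83 and 5.25, then 5.57, 5.58 and 6.44. The 5 of 8 macrophage markers with a row summed to 33.6 to 38.6 CPM in controls and 38.5 to 39.7 in DICER_KO, and Cd68 differed by 0.39 in both fits (limma adjusted p = 0.163 with all libraries and 0.0334 without DICER_KO replicate 3). The other macrophage markers were lower on average. Csf1r and Cd14 differed by -0.16 and -0.17 with all libraries (limma adjusted p = 0.704 and 0.614). Mrc1 and Lyz2 were too low to be tested, with means of -0.69 and -0.64 log2 CPM in controls and -1.49 and -0.86 in DICER_KO. Endothelial markers summed to 0.948 to 2.19 and 0.71 to 1.43 CPM, and smooth muscle markers to 424 to 559 and 345 to 439 CPM. No marker with a row was at 0 reads in every library. The part of the adipocyte content of a culture in the members' values was not tested.

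**Figure D4:**
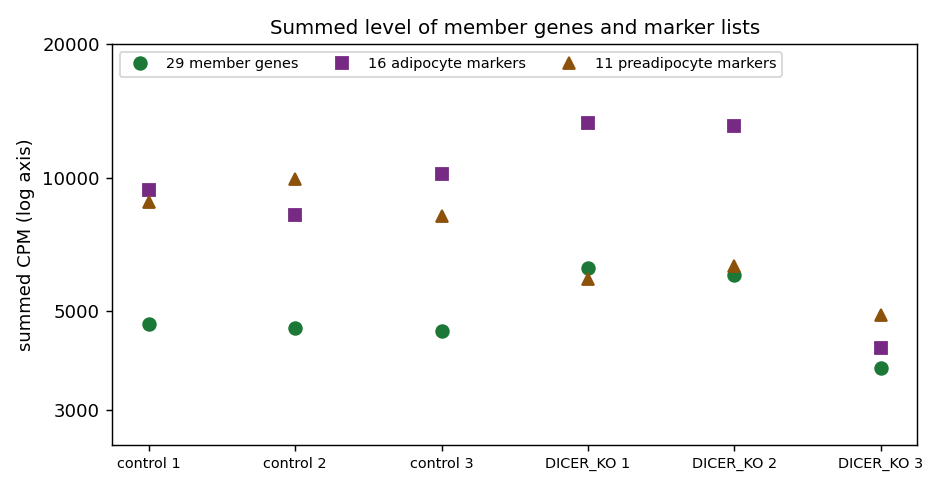
Summed CPM, on a log axis, of the 29 members (circles), 16 mature adipocyte markers (squares) and 11 preadipocyte and fibroblast markers (triangles) in each library. Members summed to 4517 to 4685 CPM in controls, 6274 and 6021 in DICER_KO replicates 1 and 2 and 3732 in replicate 3, and the adipocyte markers too are highest in replicates 1 and 2 and lowest in replicate 3.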

How the data were processed

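Poly(A) RNA libraries (NEBNext Ultra II) of 3 control and 3 DICER_KO cultures were sequenced, per the labels. FastQC, Trimmomatic, HISAT2, featureCounts, edgeR, mm10 and GRCm38 are listed, with no version, in the submitters' processing notes. The authors' deposited table holds log2 CPM in 1 column per library (0 columns belong to other samples). All values fitted whole reads with a prior of 0.5 reads (100% within 0.01 reads). The series' design text names TMM scaling. Entrez IDs were matched to RefSeq (GRCm38.p6) symbols, 13682 of 13734. Strand-specific counting is not given in the sources used here, so overlapping antisense reads cannot be told apart.

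Limma 3.58.1 (R 4.3.3) with an intensity trend was fitted to the deposited log2 values of the 10054 genes that reached 1 CPM in 3 or more libraries, with group as the only term. It was tested on simulated counts with a spread set from the controls and no library standing apart. That test therefore does not cover a library like DICER_KO replicate 3. Benjamini-Hochberg adjustment ran over these genes, and calls needed an adjusted p under 0.05. Fold changes of low genes are understated by the prior. The text names all members, the other pathway genes with the smallest p, and fixed regulators and markers. The members and lists were chosen with earlier results of these data known. The microRNAs and motifs were chosen after the data were seen. Ratios used the exact permutation test (scipy 1.17.1). A planned Got2/Got1 ratio could not be computed. Replicate numbers were not used to pair the samples in the main fit, and the labels do not say whether they do. Alternatives changed the test, scaling, filter, pseudocount, replicate term and libraries.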

Additional observations from a re-analysis of the deposited data

How the results depend on the processing

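With all libraries 0 of 29 members passed under the main fit, limma-voom, upper-quartile and median-of-ratios scaling, no filter, the filter at 5 CPM, log2(CPM + 1) and the replicate block. Leaving out single libraries gave 0 to 20 members higher (20 without DICER_KO replicate 3, 0 otherwise) and 0 lower, with a member median of 0.06 to 0.43. Over all genes it gave 0 to 1257 higher and 1 to 726 lower, the high ends without DICER_KO replicate 3 and the low ends without control replicate 3. For the other pathway genes it gave 0 to 19 higher and 0 to 1 lower, the high ends without DICER_KO replicate 3. The replicate block called 0 genes higher and 2 lower over all genes, and 0 members. Replicate numbers were taken as names only. Libraries with the same number correlated at 0.195, -0.0142 and -0.0786 in their deviations. With 3 libraries a group and 1 apart, these values cannot show whether the numbers pair the samples.

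Upper-quartile scaling gave -0.02 for Pdp1 and -0.01 for Pcx. Leaving out single libraries, the log2 difference ran from -0.04 to 0.43 for Cs, -0.07 to 0.60 for Idh1, -0.01 to 0.37 for Idh3g, -0.04 to 0.22 for Dlst, -0.01 to 0.30 for Fh1, -0.03 to 0.25 for Mdh2, -0.05 to 0.24 for Pdha1, -0.17 to 0.01 for Pdk1, -0.27 to 0.06 for Pdk4, -0.01 to 0.06 for Pdp1, 0.00 to 0.20 for Pdp2 and -0.20 to 0.48 for Pcx. The cause was not tested. For Mpc1 it stayed between 0.49 and 1.06, for Dlat between 0.51 and 0.95, and for Got2 between 0.15 and 0.17, and the Mpc1/Mpc2 ratio differed by 0.43 to 0.51. With 3 libraries a group and 1 apart, the members' SE had a median of 0.18, and 0.10 without DICER_KO replicate 3.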
